A study of Mus musculus with 15 samples.

Results

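Collagens are the triple-helical proteins that give extracellular matrix its tensile strength, and each is built from 3 chains that come from a large gene family. The 44 genes described here are all rows of the count tables whose mouse symbol names a collagen chain, such as Col1a1 or Col18a1, out of 24421 genes. Their transcripts were counted in cerebellar tissue of FVB mice of 3 genotypes, with 5 libraries each. Wild-type mice carried no transgene. Mice of the other groups carried Pcp2-ATXN1[82Q], the spinocerebellar ataxia type 1 protein with 82 glutamines, or Pcp2-ATXN1[82Q]V591A;S602D, the same expanded protein with 2 amino acid substitutions that are known to weaken its binding to the transcriptional repressor CIC. The Pcp2 promoter drives expression in Purkinje cells, so neither transgene covers the other cells in which the disease gene is expressed. The sources used here give neither the age nor the sex of the mice. Whether the libraries are from separate animals is not stated, so a p-value reflects variation between libraries, which may be technical.

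As background, fibrillar collagens such as types I and III form cables in meninges and vessel walls, type IV collagen forms the sheet-like network of basement membranes, and type VI collagen forms beaded filaments between them. FACIT collagens sit on the surface of fibrils, transmembrane collagens are anchored in the plasma membrane, and the multiplexins XV and XVIII carry glycosaminoglycans in or beside basement membranes. In the brain most collagen is made by fibroblasts of the meninges and by cells of vessel walls, but some chains are made by neurons. Collagen XVIII is one of these, and it is known to be made by Purkinje cells and to help organise the climbing fibre synapses they receive.

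Counts on genes ran from 36467948 to 42818401 per library. All 44 chains had enough counts for the test, as did 15843 of all genes, although Col10a1, Col6a4 and Col6a5 passed only through the transgenic libraries and had no wild-type library above the filter. Every marker list below is of bulk tissue, where fewer cells of a type and less RNA per cell cannot be told apart. The labelled tissue carried its markers: 12 Purkinje cell markers summed to 9697 to 10904 CPM (counts per 1000000 counts of a library) in wild type, and 10 granule cell markers to 6794 to 7864 CPM. Libraries also differed in ways their labels do not give. Ttr, the defining transcript of choroid plexus, was under 100 CPM in 7 libraries (3 wild type, 2 ATXN1[82Q], 2 V591A;S602D) and between 1090 and 4869 CPM in the other 8, so that tissue was present in part of every genotype. The 4 haemoglobin genes on the blood list were at 0 in every library. The other gene of that list, Alas2, was counted in all, at 5.66 to 11.1 CPM in wild type, 8.29 to 20.2 CPM in ATXN1[82Q] and 6.38 to 11.8 CPM with V591A;S602D. The list therefore does not show that blood was absent.

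For the chains that follow, 5 values in a row are replicates 1 to 5 of a genotype, in CPM scaled by TMM normalisation factors. A difference between genotypes is a log2 fold change from the edgeR quasi-likelihood test with its standard error (SE). A gene was called where the Benjamini-Hochberg adjusted p over all tested genes was under 0.05. Levels of different chains are compared only as CPM per kilobase of merged exon. Shares and sums over chains are of CPM and are not scaled by exon length, so longer chains weigh more in them.

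The 3 promoter windows printed here belong to the chains that fell furthest, Col18a1 and Col5a1, and to Col3a1, a fibrillar chain that rose. They come from RefSeq (GRCm38.p6), which gave a window for 35 of the 44 chains and 38 windows in all, and run 5′ to 3′ on the strand of the gene, up to the first annotated exonic base. Capitals mark a CCAAT box (CCAAT), a GC box (GGGCGG) or a TATA box (TATAAA) on either strand, and no match in capitals overlaps another. Col18a1 lies on the minus strand with its window at chr10:77166549-77166780, Col5a1 on the plus strand at chr2:27886175-27886424 and Col3a1 on the plus strand at chr1:45311288-45311537.
Col18a1: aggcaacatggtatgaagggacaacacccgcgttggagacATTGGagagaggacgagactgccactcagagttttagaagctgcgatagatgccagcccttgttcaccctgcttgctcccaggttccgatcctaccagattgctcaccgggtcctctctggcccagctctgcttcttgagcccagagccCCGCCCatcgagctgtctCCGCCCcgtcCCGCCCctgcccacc
Col5a1: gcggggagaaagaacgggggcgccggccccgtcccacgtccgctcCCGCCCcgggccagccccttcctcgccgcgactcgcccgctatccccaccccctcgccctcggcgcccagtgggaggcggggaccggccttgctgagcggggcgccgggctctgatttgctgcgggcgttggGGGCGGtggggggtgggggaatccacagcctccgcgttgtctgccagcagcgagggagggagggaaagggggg
Col3a1: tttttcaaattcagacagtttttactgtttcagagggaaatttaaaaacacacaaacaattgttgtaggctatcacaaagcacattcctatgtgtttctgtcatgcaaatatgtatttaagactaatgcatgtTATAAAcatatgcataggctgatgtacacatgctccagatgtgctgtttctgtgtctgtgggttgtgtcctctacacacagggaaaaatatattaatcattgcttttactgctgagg
The Col18a1 window holds 3 GC boxes and 1 CCAAT box, the Col5a1 window 2 GC boxes, and the Col3a1 window 1 TATA box and no GC box. GC content was 60.8% for Col18a1, 76.4% for Col5a1 and 35.2% for Col3a1. Over the 250 bases before the start, a GC box was found in 22 of 38 collagen windows (57.9%), against 32.7% of 32851 windows of all genes. A CCAAT box was found in 13 of 38 (34.2%, against 33.8% of all windows), a TATA box in 5 (13.2%, against 12.4%) and AGGTCA, the hexamer read by many nuclear receptors, in 8 (21.1%, against 14.0%). The octamers TGAATGAA, TGAATGGA, TCAATGAA and TCAATGGA, which CIC is known to bind, were searched on both strands and were in 0 of 38 collagen windows and in 3.19% of all windows. A match of letters is a description of the window only.

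In wild-type cerebellum the highest level per kilobase among the 44 chains was that of Col18a1, at 20.2 ± 1.18 CPM per kb (SD, n = 5). The cartilage-type FACIT chains Col9a3 and Col9a2 followed at 11.6 ± 1.91 and 10.1 ± 0.267 CPM per kb, and these 2 neighbours did not differ beyond their spread. Col5a1, the chain of type V collagen that starts new fibrils, stood at 5.07 ± 0.603 CPM per kb and Col6a1 at 4.96 ± 0.782 CPM per kb, again within each other's spread. Col27a1, a minor fibrillar chain, came next at 4.14 ± 0.344 CPM per kb. In ATXN1[82Q] the order began with Col9a3 (12.7 ± 2.38 CPM per kb), Col9a2 (10.4 ± 0.347 CPM per kb) and Col6a1 (7.58 ± 1.12 CPM per kb). Col18a1 stood at rank 5 with 4.46 ± 0.328 CPM per kb, close to Col27a1 at 4.65 ± 0.312 CPM per kb, and Col5a1 stood at rank 23 with 1.08 ± 0.130 CPM per kb. With V591A;S602D, Col18a1 was again the highest at 14.6 ± 4.51 CPM per kb, and its spread reached that of Col9a3 at 12.2 ± 2.44 CPM per kb.

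**Figure D1:**
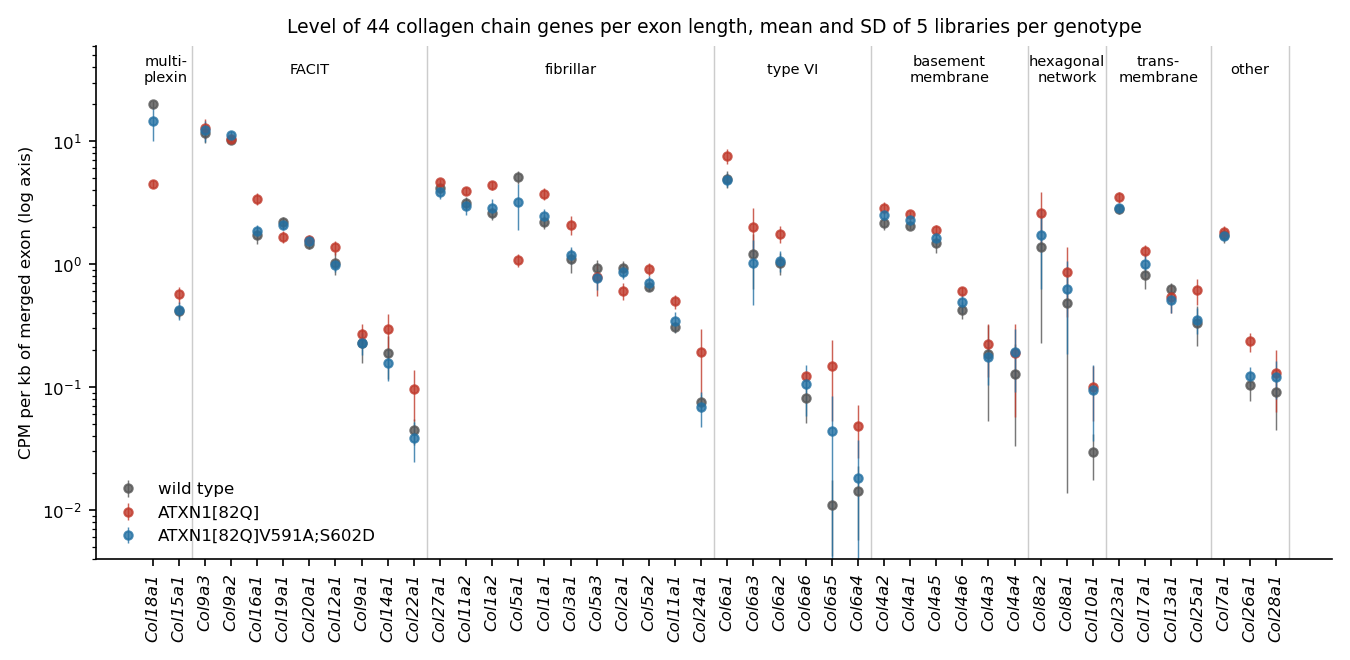
Level of each collagen chain gene in CPM per kilobase of merged exon (log axis), grouped by family; points are genotype means and bars are SDs of 5 libraries. Col18a1 is the highest chain in wild type (20.2 CPM per kb) and drops to 4.46 CPM per kb in ATXN1[82Q], while most other chains sit level or higher in ATXN1[82Q].

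The share of Col18a1 in the counts of the family, not scaled by exon length, also differed between genotypes. Col18a1 made up 22.8% ± 1.23 of all collagen chain counts in wild type (SD, n = 5). In ATXN1[82Q] its share was 5.05% ± 0.311, and with V591A;S602D it was 17.4% ± 3.65. The 44 chains together came to 624 ± 44.9 CPM in wild type and 620 ± 34.8 CPM in ATXN1[82Q], a difference smaller than the spread between libraries. Without Col18a1 and Col5a1, 2 chains set aside after their values were seen, the others summed to 382 to 472 CPM in wild type, 529 to 619 CPM in ATXN1[82Q] and at most 513 CPM with V591A;S602D. Once these chains were left out, every ATXN1[82Q] library lay above every other library.

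ATXN1[82Q] cerebella were first compared with wild type. Collagen XVIII and the type V chain Col5a1 fell more than 4-fold, while chains of types I, III, IV, VI and XVI and several rarer collagens rose, mostly by less than 2-fold. Of the 44 chains, 24 were called higher, beside 16.6% of all tested genes, and 4 were called lower, beside 14.9% of all tested genes. Of the 24, Col10a1, Col6a4 and Col6a5 passed the count filter only through libraries of the transgenic genotypes, so their calls are no support for a change in the family, and 21 of the other 41 chains were called higher. The median log2 fold change of the 44 chains was 0.51 (0.48 without these 3), and that of all tested genes 0.01. Values of the 2 genotypes did not overlap for 14 chains that were higher and 2 that were lower (36.4% of the chains, or 34.1% without these 3, beside 19.2% of all tested genes). The 16 chains without a call were Col4a3, Col4a4, Col5a3, Col6a3, Col6a6, Col7a1, Col8a1, Col8a2, Col9a1, Col9a2, Col9a3, Col13a1, Col14a1, Col20a1, Col27a1 and Col28a1.

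**Figure D2:**
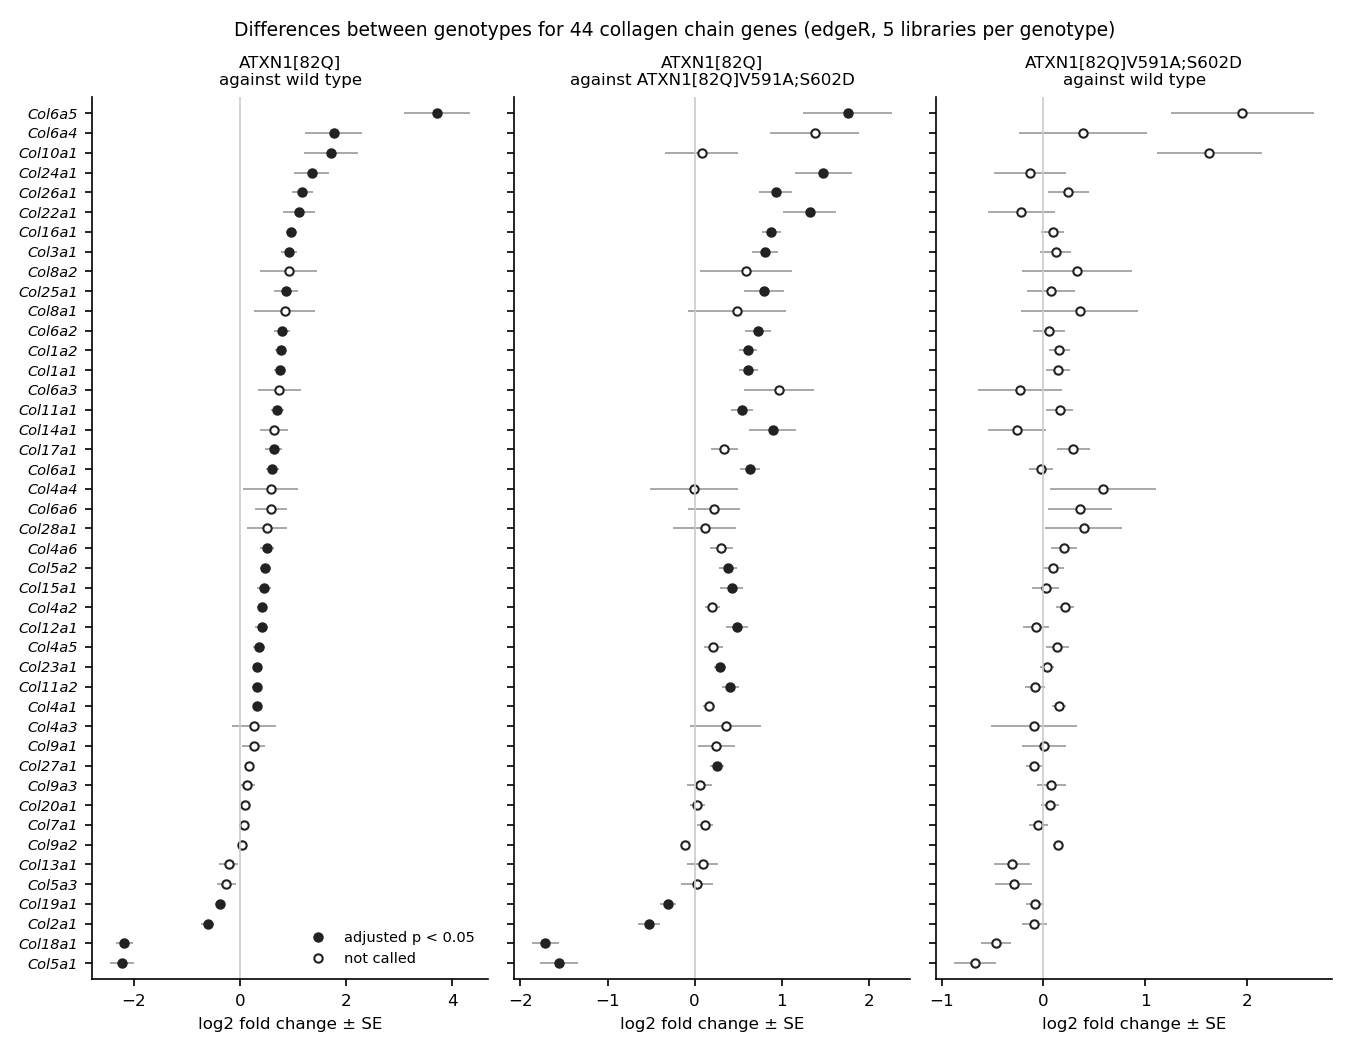
Log2 fold change with its SE for 44 collagen chain genes in each comparison between genotypes, ordered by the first; filled points are edgeR calls at an adjusted p under 0.05. Col18a1 and Col5a1 are the lowest points in both comparisons of ATXN1[82Q], 24 and 19 chains are called higher there, and no chain is called in the comparison at the right.

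Col18a1 (chr10:77052178-77166548, GRCm38) encodes the chain whose cleavage releases endostatin. It read 144, 155, 135, 140 and 136 CPM in the wild-type libraries, 33.8, 29.1, 30.5, 33.8 and 29.4 CPM in ATXN1[82Q] and 64.2, 90.3, 150, 97.1 and 111 CPM with V591A;S602D. All 5 ATXN1[82Q] libraries lay far below every wild-type library, and the V591A;S602D libraries were spread between the groups, with replicate 3 inside the wild-type range and replicate 1 the lowest. In ATXN1[82Q] the gene fell by 2.18 on the log2 scale (SE 0.152, edgeR adjusted p = 1.76e-08). Col5a1 (chr2:27886425-28039514) had the same shape over the genotypes. Its values were 42.6, 51.1, 36.9, 42.1 and 42.6 CPM in wild type, 8.71, 8.61, 8.44, 9.14 and 11.1 CPM in ATXN1[82Q] and 12.5, 22.7, 41.1, 25.1 and 34.2 CPM with V591A;S602D, and it fell by 2.22 on the log2 scale in ATXN1[82Q] (SE 0.220, edgeR adjusted p = 8.68e-07). Again every ATXN1[82Q] library was below every wild-type library, and V591A;S602D replicate 1 came closest to the ATXN1[82Q] libraries.

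Markers of Purkinje cells moved with these chains. All 12 were lower in ATXN1[82Q] than in wild type (median log2 fold change -1.17), and their sum fell from between 9697 and 10904 CPM to between 3771 and 4446 CPM, with none at 0. In the V591A;S602D libraries the sums were 6792, 7463, 9282, 7212 and 8091 CPM for replicates 1 to 5, so replicate 1 was lowest and replicate 3 highest, as for Col18a1 and Col5a1. The part of the Purkinje cell markers in the fall of either chain was not tested.

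Lesser falls were seen in 2 further chains. Col19a1, a FACIT chain that neurons can make, read 14.4, 12.9, 17.1, 16.2 and 14.6 CPM in wild type and 13.2, 10.8, 12.5, 10.5 and 10.6 CPM in ATXN1[82Q], and fell by 0.39 on the log2 scale (SE 0.0879, edgeR adjusted p = 0.00293). Replicate 1 of ATXN1[82Q] lay within the wild-type range. Col2a1, the main fibrillar chain of cartilage, read 9.02, 6.42, 8.32, 9.90 and 9.04 CPM in wild type and 6.93, 5.26, 4.52, 5.63 and 5.66 CPM in ATXN1[82Q], and fell by 0.61 (SE 0.127, edgeR adjusted p = 0.00152), with 1 library of each genotype reaching into the range of the other.

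**Figure D3:**
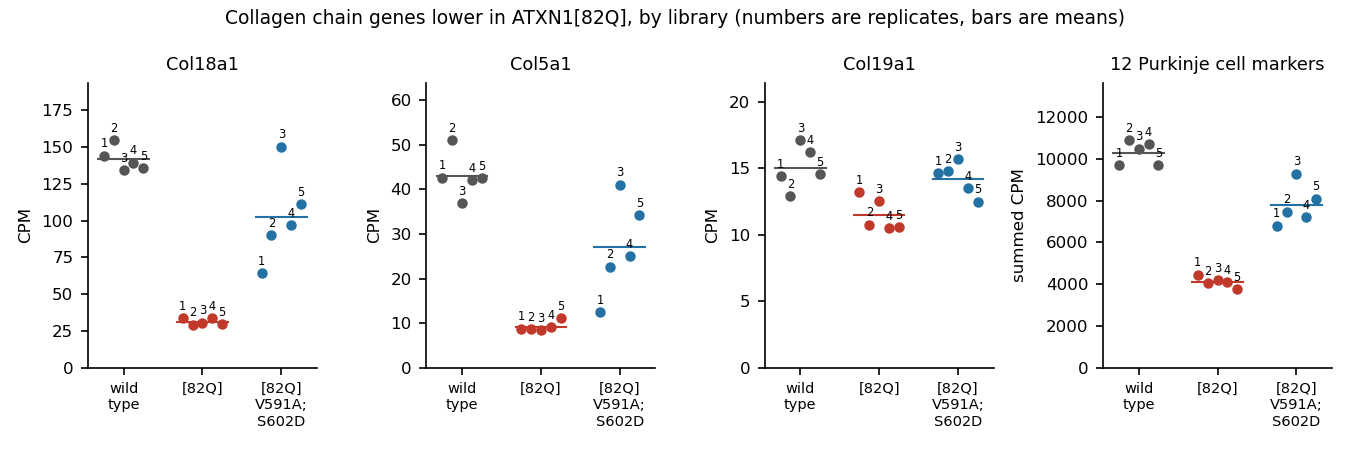
CPM of Col18a1, Col5a1 and Col19a1 and summed CPM of 12 Purkinje cell markers in each library; numbers are replicates and bars are genotype means. ATXN1[82Q] libraries (29.1 to 33.8 CPM for Col18a1) form a tight low group, and V591A;S602D libraries spread from 64.2 to 150 CPM with replicates 1 and 3 at the ends in Col18a1, in Col5a1 and in the marker sum.

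Among the fibrillar chains 7 of 11 were called higher and 2 lower, and their median log2 fold change was 0.48. Type I collagen, the main fibril former of meninges and vessel walls, rose in both of its chains. Col1a1 read 14.8, 16.9, 11.8, 14.1 and 14.9 CPM in wild type, 26.7, 19.9, 26.1, 26.0 and 24.1 CPM in ATXN1[82Q] and 11.9, 16.6, 15.3, 18.7 and 17.5 CPM with V591A;S602D, a rise of 0.76 in ATXN1[82Q] against wild type (SE 0.113, edgeR adjusted p = 6.92e-05). Col1a2 read 33.0, 35.7, 26.6, 30.3 and 34.8 CPM in wild type, 58.7, 47.6, 58.7, 55.1 and 53.1 CPM in ATXN1[82Q] and 26.3, 36.1, 34.3, 40.6 and 41.3 CPM with V591A;S602D, a rise of 0.77 (SE 0.105, edgeR adjusted p = 3.06e-05). For both chains every ATXN1[82Q] library was above every library of the other genotypes. Col3a1, which accompanies type I collagen in distensible tissue, was also higher: it read 9.32, 14.4, 9.37, 8.62 and 11.9 CPM in wild type, 20.8, 14.8, 24.5, 21.9 and 19.8 CPM in ATXN1[82Q] and 8.83, 12.5, 11.2, 12.2 and 13.5 CPM with V591A;S602D, and rose by 0.93 (SE 0.149, edgeR adjusted p = 0.000157). Here ATXN1[82Q] replicate 2 and wild-type replicate 2 nearly met.

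The remaining fibrillar chains were less abundant or moved less. Col5a2, the partner of Col5a1 in type V collagen, went the other way from it. Col5a2 read 6.0, 6.99, 5.69, 6.25 and 6.44 CPM in wild type and 8.21, 8.73, 9.25, 7.33 and 10.2 CPM in ATXN1[82Q], and rose by 0.48 (SE 0.103, edgeR adjusted p = 0.00196). Type XI chains, which control fibril width, were also higher: Col11a1 read 4.35, 3.84, 3.28, 3.88 and 4.08 CPM in wild type and 6.19, 6.75, 4.90, 6.89 and 6.97 CPM in ATXN1[82Q] (log2 fold change 0.71, edgeR adjusted p = 0.000508). Its partner Col11a2 read 23.8, 18.8, 18.6, 24.0 and 22.9 CPM in wild type and 24.8, 25.5, 28.9, 27.9 and 28.4 CPM in ATXN1[82Q] (log2 fold change 0.33, edgeR adjusted p = 0.0154). The groups did not overlap for these chains. Col27a1 missed the threshold, with 53.7, 55.2, 54.5, 59.4 and 47.0 CPM in wild type and 62.9, 62.1, 62.4, 62.1 and 53.3 CPM in ATXN1[82Q].

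Of the 6 type VI chains, Col6a1 and Col6a2 rose, Col6a3 and Col6a6 were not called, and Col6a4 and Col6a5 were called after passing the filter only through transgenic libraries. Col6a1 read 22.8, 26.5, 17.3, 19.9 and 22.1 CPM in wild type, 36.8, 26.4, 37.8, 35.4 and 29.7 CPM in ATXN1[82Q] and 17.1, 21.5, 21.2, 22.5 and 24.4 CPM with V591A;S602D, a rise of 0.61 in ATXN1[82Q] (SE 0.117, edgeR adjusted p = 0.000769). Col6a2, with which it shares the filament, read 7.36, 10.3, 6.85, 7.68 and 10.3 CPM in wild type, 16.1, 11.0, 17.1, 14.0 and 15 CPM in ATXN1[82Q] and 6.31, 10.5, 9.06, 8.06 and 10.3 CPM with V591A;S602D, a rise of 0.78 (SE 0.151, edgeR adjusted p = 0.000805). Only ATXN1[82Q] replicate 2 reached the wild-type range for Col6a1, and none did for Col6a2. The chain that completes the filament, Col6a3, varied within every genotype, from 4.42 to 20.6 CPM in wild type, from 11.1 to 35.0 CPM in ATXN1[82Q] and from 5.22 to 20.2 CPM with V591A;S602D, and was not called. Col6a4 and Col6a5, which can take its place, were near the limit of counting: Col6a5 had 5, 3, 2, 2 and 8 counts in wild type, 45, 37, 42, 123 and 39 counts in ATXN1[82Q] and 7, 9, 26, 36 and 2 counts with V591A;S602D. Its fitted log2 fold change in ATXN1[82Q] against wild type was 3.71 (SE 0.627, edgeR adjusted p = 0.000258). Col6a4 had 5, 6, 8, 2 and 2 counts in wild type, 12, 28, 22, 14 and 9 counts in ATXN1[82Q] and 17, 2, 7, 3 and 2 counts with V591A;S602D (log2 fold change 1.77, edgeR adjusted p = 0.0198), and without wild-type replicate 4 or ATXN1[82Q] replicate 2 its adjusted p was 0.0526 or 0.0560.

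**Figure D4:**
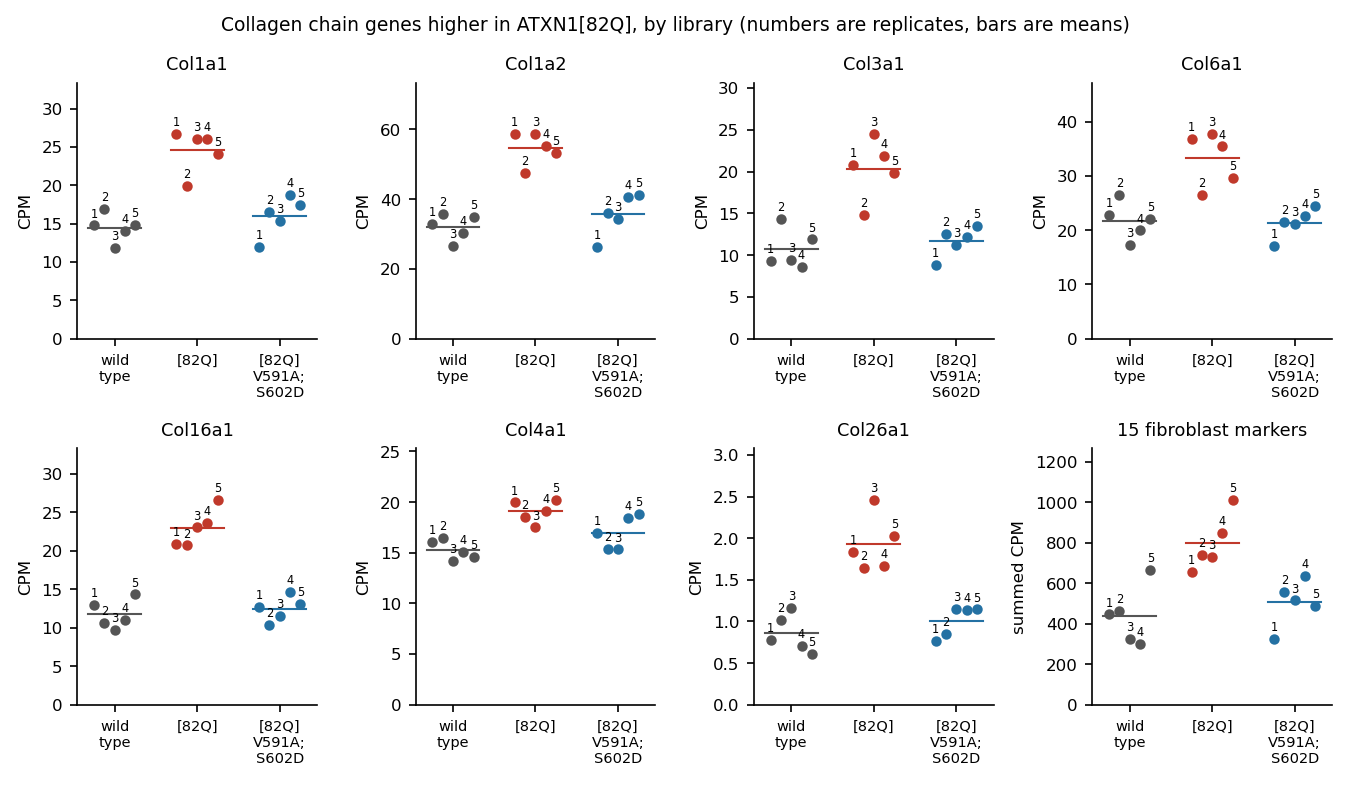
CPM of 7 collagen chain genes that were higher in ATXN1[82Q] than in wild type, and summed CPM of 15 meningeal and perivascular fibroblast markers, in each library; numbers are replicates and bars are genotype means. For Col1a1, Col1a2, Col3a1 and Col16a1 the ATXN1[82Q] points lie above all others, and the fibroblast marker sums run from 657 to 1013 CPM in ATXN1[82Q] and from 298 to 667 CPM in wild type.

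Of the 6 type IV chains, 4 were called higher (median log2 fold change of the 6, 0.38). Col4a1 and Col4a2, which make up the basement membrane network of all vessels, are transcribed in opposite directions on chromosome 8 from starts that overlap by 22 bp in the annotation. Col4a1 read 16.1, 16.4, 14.2, 15.1 and 14.6 CPM in wild type, 20.0, 18.5, 17.5, 19.1 and 20.2 CPM in ATXN1[82Q] and 17.0, 15.4, 15.3, 18.4 and 18.9 CPM with V591A;S602D, and rose by 0.32 in ATXN1[82Q] (SE 0.0673, edgeR adjusted p = 0.00170). Col4a2 read 16.2, 14.9, 11.5, 13.9 and 14.9 CPM in wild type, 19.9, 20.1, 15.5, 19.1 and 20.4 CPM in ATXN1[82Q] and 14.8, 17.6, 15.7, 18.0 and 16.5 CPM with V591A;S602D, and rose by 0.41 (SE 0.0892, edgeR adjusted p = 0.00206). The groups did not overlap for Col4a1, while ATXN1[82Q] replicate 3 lay in the wild-type range for Col4a2. The X-linked pair Col4a5 and Col4a6, whose starts lie 1308 bp apart, rose by 0.35 and 0.51 (edgeR adjusted p = 0.0229 and 0.00661). Col4a6 read 3.59, 4.03, 2.71, 3.00 and 3.57 CPM in wild type and 4.28, 4.53, 5.21, 5.08 and 4.96 CPM in ATXN1[82Q], without overlap. Col4a5 read 10.5, 11.6, 7.37, 9.12 and 11.1 CPM in wild type, 11.9, 11.3, 13.2, 12.6 and 14.5 CPM in ATXN1[82Q] and 10.6, 9.05, 11.3, 12.7 and 11.0 CPM with V591A;S602D. The adjusted p of Col4a5 was 0.0597, 0.0572 and 0.0627 without wild-type replicate 3, wild-type replicate 4 and ATXN1[82Q] replicate 5. Col4a3 and Col4a4, whose starts on chromosome 1 are 71 bp apart, were not called and are described with the choroid plexus below. Of the endothelial markers 0 of 12 were called by edgeR in any comparison, with 1 of 12 at an unadjusted p under 0.05 in each comparison with wild type and 3 of 12 between the transgenes. Of the mural cell markers 5 of 10 were called higher in ATXN1[82Q], with sums of 155 to 184 CPM in wild type against 201 to 240 CPM in ATXN1[82Q], and their part in the result was not tested.

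Of the 9 FACIT chains 3 were called higher and 1 lower (median log2 fold change 0.26). Col16a1, which links fibrils to other matrix, read 13.0, 10.6, 9.67, 11.0 and 14.3 CPM in wild type, 20.8, 20.7, 23.0, 23.6 and 26.6 CPM in ATXN1[82Q] and 12.7, 10.4, 11.5, 14.6 and 13.1 CPM with V591A;S602D, and rose by 0.97 in ATXN1[82Q] (SE 0.108, edgeR adjusted p = 3.40e-06). No ATXN1[82Q] library came near a library of the other genotypes. Col12a1, a chain of dense connective tissue, read 13.9, 20.9, 12.6, 16.9 and 13.9 CPM in wild type and 22.4, 17.3, 24.0, 21.5 and 18.6 CPM in ATXN1[82Q], with overlapping groups (log2 fold change 0.41, edgeR adjusted p = 0.0185). Without wild-type replicate 3 or ATXN1[82Q] replicate 3 the adjusted p of Col12a1 was 0.0577 or 0.0525. Col22a1, a chain of tissue junctions, read 0.377, 0.349, 0.379, 0.579 and 0.352 CPM in wild type and 0.876, 0.758, 0.598, 0.604 and 1.56 CPM in ATXN1[82Q] (log2 fold change 1.11, edgeR adjusted p = 0.00964). The abundant chains Col9a2 and Col9a3 were not called. Col9a2 read 30.5, 32.3, 31.6, 30.4 and 31.8 CPM in wild type and 32.6, 30.5, 32.7, 33.2 and 31.7 CPM in ATXN1[82Q].

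Transmembrane collagens rose in 3 of 4 chains (median log2 fold change 0.48). Col25a1, a neuronal collagen that was found in amyloid plaques, read 2.61, 6.42, 2.98, 4.66 and 4.93 CPM in wild type, 6.99, 5.19, 8.94, 9.98 and 8.39 CPM in ATXN1[82Q] and 2.99, 5.14, 4.15, 4.56 and 5.90 CPM with V591A;S602D. It rose by 0.87 in ATXN1[82Q] (SE 0.230, edgeR adjusted p = 0.00813), with 1 library in each group reaching into the other. Col17a1, the hemidesmosome collagen of skin, read 5.05, 4.35, 5.20, 3.38 and 6.57 CPM in wild type and 6.64, 6.36, 8.60, 8.36 and 8.12 CPM in ATXN1[82Q] (log2 fold change 0.63, edgeR adjusted p = 0.00613). Col23a1 read 15.6, 18.0, 15.8, 14.4 and 16.4 CPM in wild type and 20.6, 17.9, 21.8, 22.2 and 18.1 CPM in ATXN1[82Q] (log2 fold change 0.33, edgeR adjusted p = 0.00208).

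Of the rest, Col15a1, the other multiplexin, rose where Col18a1 fell. It read 3.01, 2.23, 2.84, 2.34 and 2.74 CPM in wild type and 4.33, 2.96, 3.20, 3.48 and 3.99 CPM in ATXN1[82Q] (log2 fold change 0.45, edgeR adjusted p = 0.0174), and without ATXN1[82Q] replicate 1 its adjusted p was 0.0514. Col26a1 read 0.779, 1.02, 1.16, 0.705 and 0.604 CPM in wild type, 1.83, 1.64, 2.46, 1.67 and 2.03 CPM in ATXN1[82Q] and 0.767, 0.853, 1.15, 1.14 and 1.14 CPM with V591A;S602D, and rose by 1.17 (SE 0.193, edgeR adjusted p = 0.000195). Its ATXN1[82Q] libraries were above all others. Col10a1, the chain of hypertrophic cartilage, had 2, 2, 4, 5 and 5 counts in wild type, 18, 15, 6, 7 and 18 counts in ATXN1[82Q] and 22, 6, 9, 16 and 5 counts with V591A;S602D. It was called in ATXN1[82Q] against wild type (log2 fold change 1.71, edgeR adjusted p = 0.0159), and the V591A;S602D libraries held 58 counts in all, beside 64 in ATXN1[82Q].

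Col24a1, a minor fibrillar chain, and Col22a1 were highest in the same ATXN1[82Q] library. Col24a1 read 0.528, 0.537, 0.460, 0.680 and 0.655 CPM in wild type and 1.12, 2.13, 0.980, 0.629 and 2.46 CPM in ATXN1[82Q] (log2 fold change 1.35, SE 0.326, edgeR adjusted p = 0.00448), with replicates 2 and 5 above the rest. Those 2 libraries were also the highest in the 12 brainstem neuron markers, whose sums were 191, 268, 180, 186 and 310 CPM over ATXN1[82Q] replicates 1 to 5 and 161 to 209 CPM in wild type, with Hoxb8 at 0 in every library. Of this list 2 of 6 tested markers were called higher in ATXN1[82Q]. With the marker mean as a covariate, an alternative added after the data were seen, the log2 fold change of Col24a1 was 0.65 (edgeR adjusted p = 0.0584) and that of Col22a1 0.65 (adjusted p = 0.101). Against V591A;S602D both stayed called with this covariate, at 1.00 and 1.02 (adjusted p = 0.00443 and 0.0102). It also ended the calls against wild type of Col10a1, Col11a2, Col15a1 and Col4a5, whose edgeR adjusted p was 0.117, 0.0557, 0.0794 and 0.0630. Col7a1, the anchoring fibril chain, came to a call (0.23, adjusted p = 0.0191). Over all tested genes the share called against wild type was 23.8% with this covariate and 31.5% without it, so lost calls were not limited to collagens.

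Fibroblast markers, among other marker lists, moved with the chains that rose. Of 15 markers of meningeal and perivascular fibroblasts, 12 were called higher in ATXN1[82Q] than in wild type (median log2 fold change 0.72), none was at 0, and the sum ran from 298 to 667 CPM in wild type and from 657 to 1013 CPM in ATXN1[82Q]. Their mean log2 level did not overlap between these genotypes. With that mean as a covariate 5 chains were called by edgeR (Col10a1, Col16a1 and Col6a4 higher, Col18a1 and Col5a1 lower), beside 7.18% of all tested genes. Col10a1 and Col6a4 passed the count filter only through transgenic libraries, so their calls are no support for a rise. The share over all genes had been 31.5% without the covariate, so the loss of calls was not limited to collagens. The median log2 fold change of the 24 chains that had been called higher, with Col10a1, Col6a4 and Col6a5 among them, went from 0.73 to 0.29. In a fit of the 7 libraries with Ttr under 100 CPM, of which 3 were wild type and 2 ATXN1[82Q], 17 chains were called, beside 20.4% of all tested genes, and 1 of them, Col8a1, had not been called over all libraries. Microglial markers were also higher, in 12 of 12, with sums of 158 to 183 CPM in wild type and 290 to 325 CPM in ATXN1[82Q]. Called higher too were 7 of 10 oligodendrocyte, 4 of 6 oligodendrocyte precursor and 2 of 8 interneuron markers. Of the astrocyte and Bergmann glia markers 6 of 12 were called higher and 3 lower, and of the granule cell markers 1 of 10 higher and 7 lower. Over all tested genes 16.6% were called higher and 14.9% lower. The part of these cell types in the result was not tested.

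The second comparison set V591A;S602D, the form with weakened CIC binding, against wild type. The level of neither transgene is given here. Effects of the substitutions therefore cannot be told apart from a difference in transgene level or other differences between the transgenic groups. No chain was called by edgeR or by DESeq2, beside 1.41% of all tested genes in edgeR. At an unadjusted p under 0.05 there were 7 chains (15.9%, beside 11.7% of all tested genes): Col4a1, Col4a2, Col6a5, Col9a2 and Col10a1 higher, and Col5a1 and Col18a1 lower. Of these, Col6a5 and Col10a1 passed the count filter only through transgenic libraries and are no support for a change in the family. The median log2 fold change of the 44 chains was 0.08. Col18a1 was -0.47 (SE 0.143, edgeR adjusted p = 0.153) and Col5a1 -0.67 (SE 0.206, edgeR adjusted p = 0.153). For these 2 genes the call turned on a single library: without V591A;S602D replicate 3, which held 150 CPM of Col18a1 and 41.1 CPM of Col5a1, the adjusted p was 0.00261 for Col18a1 and 0.0218 for Col5a1, both lower. Without V591A;S602D replicate 5, which had the lowest Col9a2 at 30.1 CPM against 34.8 to 36.8 CPM in the other 4, Col9a2 was called higher with an adjusted p of 0.0272. Of the Purkinje cell markers 8 of 12 were called lower, and of the fibroblast markers 0 of 15 were called by edgeR and 0 had an unadjusted p under 0.05, with sums of 324 to 638 CPM. Only Col10a1 had groups that did not overlap, beside 3.16% of all tested genes. Since Col10a1 passed the filter only through transgenic libraries, this is no support for a change. Without Col10a1, Col6a4 and Col6a5, no chain of the other 41 had groups without overlap.

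Last, ATXN1[82Q] was compared with V591A;S602D, which tests the difference between the transgenic groups. This comparison and the first share the ATXN1[82Q] libraries, so their values are set side by side and not counted as separate evidence. Of the 44 chains 19 were called higher in ATXN1[82Q], beside 13.5% of all tested genes, and 4 were called lower, beside 14.6% of all tested genes. Without Col10a1, Col6a4 and Col6a5, 18 of 41 were called higher. The median log2 fold change was 0.35, and that of all tested genes 0.01. Groups did not overlap for 13 chains (29.5%, beside 17.9% of all tested genes). Fibroblast markers were again higher, in 11 of 15, and all 12 Purkinje cell markers were lower. With the fibroblast mean as a covariate 4 chains were called (Col16a1 and Col6a4 higher, Col18a1 and Col5a1 lower), beside 4.68% of all tested genes, where 28.1% had been called without it. The call of Col6a4 is no support for a rise, since it passed the count filter only through transgenic libraries. In the fit of the 7 libraries with Ttr under 100 CPM 14 were called, beside 9.53% of all tested genes.

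Col18a1 fell by 1.71 on the log2 scale (SE 0.151, edgeR adjusted p = 1.15e-06) against V591A;S602D, beside 2.18 against wild type. Col5a1 fell by 1.55 (SE 0.219, edgeR adjusted p = 9.17e-05), beside 2.22 against wild type. Both had no overlap between the transgenes, even with V591A;S602D replicate 1. Col2a1 read 6.36, 7.75, 8.54, 8.35 and 9.17 CPM with V591A;S602D and Col19a1 14.6, 14.8, 15.7, 13.5 and 12.5 CPM, and each overlapped ATXN1[82Q]. Col2a1 fell by 0.52 and Col19a1 by 0.31 (edgeR adjusted p = 0.00607 and 0.0158).

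In the direction of a rise, Col16a1 differed by 0.88 (SE 0.107, edgeR adjusted p = 2.50e-05), Col3a1 by 0.81, Col6a2 by 0.73, Col6a1 by 0.64, Col1a1 by 0.62 and Col1a2 by 0.61, and for these 6 every ATXN1[82Q] library exceeded every V591A;S602D library. Col26a1 differed by 0.93, Col25a1 by 0.80, Col22a1 by 1.32 and Col24a1 by 1.48. In V591A;S602D, Col22a1 read 0.247, 0.366, 0.209, 0.518 and 0.416 CPM, below every ATXN1[82Q] library. Col24a1 read 0.322, 0.610, 0.418, 0.752 and 0.519 CPM there, and its highest library lay above the lowest of ATXN1[82Q]. Called with smaller differences were Col23a1, Col11a1, Col11a2, Col5a2, Col12a1, Col15a1 and Col27a1, which lay between 0.26 and 0.55. Of these 7, Col11a2, Col12a1 and Col23a1 had no overlap between the transgenes: Col12a1, for one, read 13.8, 16.6, 16.0, 12.4 and 15.3 CPM with V591A;S602D. Col14a1, a FACIT chain that regulates fibril growth, read 1.00, 1.53, 0.975, 0.983 and 2.14 CPM in wild type, 2.12, 1.91, 1.34, 1.76 and 3.18 CPM in ATXN1[82Q] and 0.643, 1.34, 1.12, 1.48 and 0.961 CPM with V591A;S602D. It was called at 0.90 (edgeR adjusted p = 0.0216), and Col6a5 at 1.76 (edgeR adjusted p = 0.0169). Without V591A;S602D replicate 1, replicate 5 or ATXN1[82Q] replicate 5 the adjusted p of Col14a1 was 0.0550, 0.0506 and 0.0731, and without ATXN1[82Q] replicate 4, which held 123 of the 286 counts of its genotype, that of Col6a5 was 0.0677. The adjusted p of Col15a1 was 0.0582, 0.0651 and 0.0595 without V591A;S602D replicate 1, 3 or 5, and 0.0693 and 0.0626 without ATXN1[82Q] replicate 1 or 5. That of Col27a1 was 0.0613 and 0.0646 without V591A;S602D replicate 1 or 5, and 0.0510 and 0.0503 without ATXN1[82Q] replicate 1 or 3. None of the 6 type IV chains was called: Col4a1, at 17.0, 15.4, 15.3, 18.4 and 18.9 CPM with V591A;S602D, overlapped both other genotypes, and its adjusted p against ATXN1[82Q] was 0.0712. Leaving out 1 library also brought calls. Col4a1 was called without V591A;S602D replicate 4 or 5 (adjusted p = 0.0450 and 0.0383), Col4a2 without ATXN1[82Q] replicate 3 (0.0265), Col17a1 without V591A;S602D replicate 4 (0.0350) and Col9a2 without V591A;S602D replicate 5 (0.0119). Col6a3 and Col6a4 were called without V591A;S602D replicate 1 (0.0471 and 0.00637) and without ATXN1[82Q] replicate 5 (0.0472 and 0.0407).

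A group of 5 chains divided the libraries by their level of Ttr. Col8a1 and Col8a2, which form hexagonal lattices in vessel walls and Descemet's membrane, ranged from 1.41 to 3.43 CPM and from 1.48 to 5.92 CPM in the 7 libraries with Ttr under 100 CPM, and from 4.42 to 11.8 CPM and from 6.88 to 19.0 CPM in the 8 others. Col4a3 and Col4a4, chains of specialised basement membranes, ranged from 0.932 to 1.33 CPM and from 0.478 to 1.16 CPM in the former and from 1.66 to 4.10 CPM and from 1.28 to 3.86 CPM in the latter. Col9a3 ranged from 37.1 to 43.0 CPM in the former and from 46.0 to 60.4 CPM in the latter. For all 5 chains the 2 sets of libraries did not overlap, and both sets held libraries of every genotype. These sets were formed from the data and carry no test. The 5 chains were picked for this split, and the share of all tested genes that split likewise was not counted. Whether such a split is unusual among genes therefore cannot be said. Col8a1 and Col8a2 also differed by genotype under some alternatives. In the fit of the 7 low-Ttr libraries Col8a1 was higher in ATXN1[82Q] than in wild type (log2 fold change 0.94, edgeR adjusted p = 0.0135), with 129 and 102 counts against 62, 52 and 59, and Col8a2 was 0.91 (adjusted p = 0.0532), with 223 and 227 counts against 124, 90 and 130. Without wild-type replicate 5, a high-Ttr library, both were called higher against wild type (adjusted p = 0.0311 and 0.0300), and so was Col14a1 (0.0158), which was also called without ATXN1[82Q] replicate 3 (0.0439). With Ttr as a covariate Col8a2 was called higher in ATXN1[82Q] than with V591A;S602D (0.64, adjusted p = 0.0320). Across the 3 genotypes 0 of 15 choroid plexus markers were called by edgeR and 0 had an unadjusted p under 0.05. Their sums ran from 217 to 6217 CPM in wild type (median 320), from 306 to 7667 CPM in ATXN1[82Q] (median 5102) and from 298 to 5758 CPM with V591A;S602D (median 3163). The median log2 fold change of these markers was 0.97 in ATXN1[82Q] and 0.45 with V591A;S602D against wild type, and 0.52 between the transgenes. With so wide a spread within genotypes, the absence of calls does not show that the genotypes held this tissue equally.

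**Figure D5:**
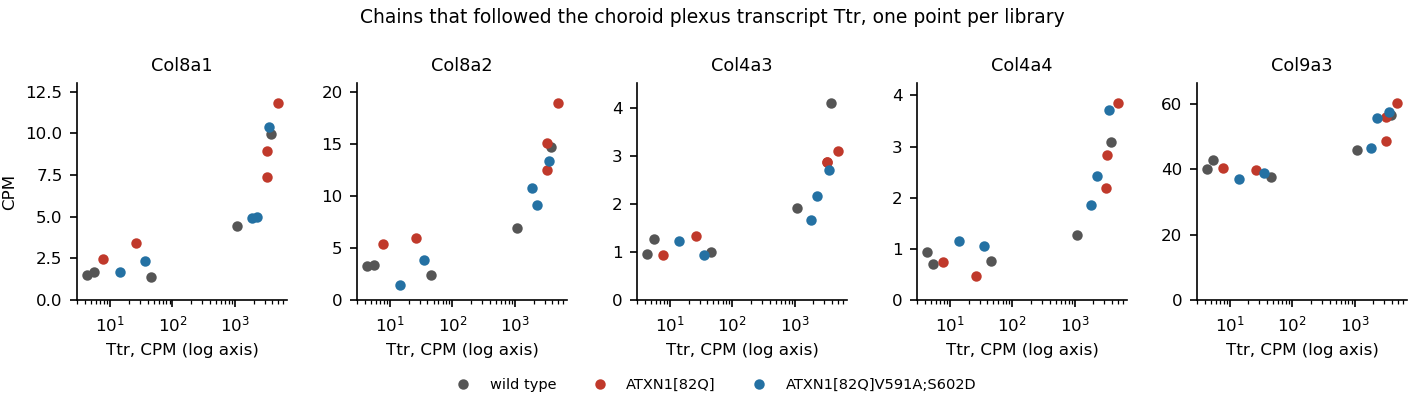
CPM of Col8a1, Col8a2, Col4a3, Col4a4 and Col9a3 against CPM of Ttr (log axis), 1 point per library, coloured by genotype. The 7 libraries with Ttr under 100 CPM lie at the lower left of each panel and the 8 others at the upper right, with all genotypes on both sides.

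Chains that share a protein were then followed across the 15 libraries after the genotype means were removed, over 12 pairs with p-values adjusted over them. Col1a1 and Col1a2 moved together (Pearson r = 0.959, Spearman rho = 0.925, permutation p = 1e-05, the smallest that 100000 resamples can give, adjusted 6e-05), also within the low-Ttr and high-Ttr libraries (r = 0.982 and 0.951). Genotype means were removed again within each of these sets, where a genotype held only 2 or 3 libraries. Every r within a set given here and below therefore rests on few independent points and carries no test. For Col1a1 and Col1a2, r was 0.928 without the 2 libraries farthest from the median. Col6a1 and Col6a2 gave r = 0.790 and rho = 0.668 (permutation p = 0.00205 and 0.0116, adjusted 0.00615 and 0.0348), with r = 0.984 over the 7 low-Ttr and 0.255 over the 8 high-Ttr libraries. Col5a1 and Col5a2, whose genotype means moved in opposite directions, gave r = 0.658 and rho = 0.718 within genotypes (permutation p = 0.0180 and 0.0145, adjusted 0.0432 and 0.0348), with r = 0.873 and 0.416 in the low-Ttr and high-Ttr libraries. Without the 2 libraries farthest from the median r was 0.673 for type VI and 0.577 for type V over 13 libraries, and neither passed after adjustment (p = 0.0751 and 0.143 by permutation). The pair Col4a5 and Col4a6 passed by rho (0.661, adjusted p = 0.0348) and not by r (0.613, adjusted p = 0.0688).

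For pairs in which both chains split with Ttr only values within the sets are given: r was 0.768 over the 7 low-Ttr and 0.923 over the 8 high-Ttr libraries for Col8a1 and Col8a2, and -0.70 and 0.916 for Col4a3 and Col4a4. Pairs whose permutation p did not pass after adjustment were Col4a1 and Col4a2 (r = 0.519, adjusted p = 0.0794), Col11a1 and Col11a2 (r = 0.418, adjusted p = 0.232), Col4a3 and Col4a5 (r = 0.402, adjusted p = 0.232), Col6a1 and Col6a3 (r = 0.295, adjusted p = 0.352), Col9a1 and Col9a2 (r = 0.458, adjusted p = 0.133) and Col9a2 and Col9a3 (r = 0.199, adjusted p = 0.623). Col4a1 and Col4a2 had r = 0.951 over the 7 low-Ttr libraries and 0.659 over the 8 high-Ttr libraries. Col4a3 and Col9a3 split with Ttr while their partners did not, so r over all libraries mixes the sets for these pairs. Over the low-Ttr and high-Ttr libraries r was 0.246 and 0.573 for Col4a3 and Col4a5, and -0.218 and 0.593 for Col9a2 and Col9a3.

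Genes that make, bind or degrade collagen were read from fixed lists. The counts that follow stand beside 16.6% of all tested genes called higher and 14.9% called lower against wild type, and 13.5% and 14.6% against V591A;S602D. Of 29 tested genes for collagen synthesis, modification and processing, 12 (41.4%) were called higher and 2 (6.90%) lower in ATXN1[82Q] against wild type (median log2 fold change 0.24). Bmp1, which trims the C-terminal propeptides of fibrillar collagens, was at 332 ± 18.1 CPM in wild type and 430.0 ± 41.5 CPM in ATXN1[82Q] (edgeR adjusted p = 0.000188). Its relative Tll1 fell by 0.57 (adjusted p = 0.000899). Adamts2 and Adamts3, which trim the N-terminal propeptides, went apart, with log2 fold changes of 0.24 and -0.41 (adjusted p = 0.00246 and 0.000188). Against V591A;S602D 4 genes of the list (13.8%) were called higher in ATXN1[82Q], a share near that of all tested genes, among them Adamts2 (0.27) and Colgalt2 (0.57), a collagen galactosyltransferase, and Tll1 was called lower (-0.63).

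Of 10 tested collagen receptors 6 were called higher and 0 lower in ATXN1[82Q] against wild type (median log2 fold change 0.31), with 7 of 10 at an unadjusted p under 0.05 beside 41.9% of all tested genes, and 7 were called higher against V591A;S602D. Adgrg1, an adhesion receptor for type III collagen, rose by 0.75 against wild type (edgeR adjusted p = 9.97e-06) and was 0.62 higher than with V591A;S602D. Lair1, an inhibitory receptor of immune cells, rose by 0.45, Mrc2, an uptake receptor for collagen, by 0.62, and the receptor tyrosine kinase Ddr1 by 0.33.

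Among 18 partners of collagen in basement membranes 11 (61.1%) were called higher and 1 lower in each comparison of ATXN1[82Q] (median log2 fold change 0.35 in both). The laminin chain gene Lamb2 rose by 0.41 against wild type (edgeR adjusted p = 0.000305), Lamc1 by 0.26 and Hspg2, which encodes perlecan, by 0.52. Against V591A;S602D the matricellular gene Smoc1 was 0.63 and the integrin ligand gene Npnt 0.50 higher.

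Of 13 small leucine-rich proteoglycans and matricellular collagen binders 12 (92.3%) were called higher in ATXN1[82Q] against wild type (median log2 fold change 0.63) and 10 (76.9%) against V591A;S602D (median 0.62), with 0 lower. Dcn, which encodes decorin, rose by 0.63 against wild type (edgeR adjusted p = 1.48e-05), Fmod by 1.03, Lum by 0.74 and Thbs2 by 0.50. This list shares Dcn, Lum, Fmod and Ogn with the fibroblast markers. Among 11 tested proteases that cut collagen and their inhibitors, 7 (63.6%) were called higher and 2 (18.2%) lower against wild type (median 0.52), and 5 (45.5%) and 2 against V591A;S602D. The inhibitor genes parted: Timp3 rose by 0.54 and Timp1 by 0.99, while Timp4 fell by 0.20 (edgeR adjusted p = 6.27e-05, 0.000568 and 0.000704). The membrane collagenase gene Mmp14 rose by 0.44. In V591A;S602D against wild type none of the genes on these 5 lists was called by edgeR, and 5 of the 29 synthesis genes and 0 of the genes on the other 4 lists had an unadjusted p under 0.05. With the fibroblast marker mean as a covariate 2 of the 20 list genes chosen for this description against wild type kept their call, Bmp1 among them, and 4 of 20 against V591A;S602D, with Itgb1, Thbs2 and Timp3 among them. In the fit of the libraries with Ttr under 100 CPM 19 and 11 of them kept it. These genes were picked by lowest adjusted p. Dcn, Lum and Fmod (Dcn and Fmod against V591A;S602D) are themselves part of the fibroblast mean, so their lost calls carry no information. Over all tested genes 31.5% and 28.1% were called in the reported fit and 7.18% and 4.68% with the fibroblast covariate. In the libraries with low Ttr these shares were 20.4% and 9.53%.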

How the data were processed

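Gene counts of 15 cerebellar RNA libraries (3 genotypes, 5 each; 10 ng of RNA, NuGEN Ovation kit, per the labels' protocols) were used. The authors aligned reads and deposited unnormalised counts per gene; STAR 2.5.3a, HTSeq, DESeq2 and mm10 are named, per the submitters' processing notes. Annotation release, counting mode and strand setting: not given in the sources used here. Reads of overlapping genes on opposite strands therefore cannot be told apart. Rows that name no gene were left out of library sizes and tests: reads in no feature were 16.8 to 18.2% of a library's total, ambiguous reads 1.18 to 1.25% and reads without a unique alignment 12.8 to 14.6%. Counts on genes were 38067915 to 40640811 per library in wild type, 36467948 to 42818401 in ATXN1[82Q] and 38468429 to 41480492 with V591A;S602D, and the common biological coefficient of variation was 0.102. Replicates of a genotype differed by more than sampling noise (chi-square per degree of freedom 5.70 to 40.6 over 30 pairs), so each library was counted as 1 replicate.

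All 15 libraries entered 1 edgeR 4.0.16 quasi-likelihood fit (R 4.3.3, TMM, filterByExpr with a minimum count of 10), with a mean per genotype and Benjamini-Hochberg adjustment over 15843 genes at 0.05. CPM were scaled by TMM factors, and log2 CPM used a prior count of 2. Alternatives were RLE size factors, no count filter, DESeq2 1.42.0, only the genotypes compared, a replicate block, leaving out each library, the Ttr level, the fibroblast marker mean or (added after the data were seen) the brainstem marker mean as a covariate, and only libraries with Ttr under 100 CPM. On simulated counts for ATXN1[82Q] against wild type (15814 genes tested) the fit recovered 78 of 100 genes changed 1.5-fold and 89 of 99 changed 2-fold, with 9 false calls among 176.

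The members and lists were chosen with earlier results of these data known. Values by library were planned for the 25 called chains with the lowest adjusted p in any comparison, the 5 highest chains per length and 10 chains chosen by name, 29 in all; from each other list up to 4 called genes per comparison were named, by lowest adjusted p, and 1 such gene is not reported here. Col4a5, Col6a4, Col14a1 and Col15a1 (called) and Col4a3, Col4a4, Col6a3, Col7a1 and Col8a2 fell outside that rule and were chosen after their values were seen.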

Additional observations from a re-analysis of the deposited data

Results flagged for a closer look

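The 33 chains that were named by rule (29) or called outside it (4) were screened in each genotype for a library that stood apart from the other 4, by the gap to its nearest neighbour as a share of the range of the genotype. Of the 99 groups of 5 libraries screened, 6 held such a library, and chance alone gives about 1 in 20 groups. Col5a1 in ATXN1[82Q] replicate 5 was 11.1 CPM, above the next library at 9.14 CPM, and this library was still below every wild-type library. Col6a5 in ATXN1[82Q] replicate 4 was 2.97 CPM, above the next at 1.2 CPM. Col4a2 in ATXN1[82Q] replicate 3 was 15.5 CPM, below the next at 19.1 CPM. Col27a1 in ATXN1[82Q] replicate 5 was 53.3 CPM, below the next at 62.1 CPM. Col22a1 in wild-type replicate 4 was 0.579 CPM, above the next at 0.379 CPM. Col15a1 in V591A;S602D replicate 4 was 3.45 CPM, above the next at 2.63 CPM.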

How the results depend on the processing

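Called chains are given in the order ATXN1[82Q] against wild type, V591A;S602D against wild type and ATXN1[82Q] against V591A;S602D. RLE size factors, no count filter and DESeq2 each gave 28, 0 and 23, the same counts as reported. Fitting only the genotypes compared gave 26, 0 and 23, and Ttr as a covariate 28, 0 and 25. Over all tested genes the shares called were 31.5%, 1.41% and 28.1% as reported and 31.9%, 1.41% and 28.3% with RLE size factors. They were 23.6%, 1.04% and 20.6% without the count filter and 30.3%, 2.89% and 28.7% with DESeq2. Only the genotypes compared gave 28.9%, 1.15% and 27.4%, and the Ttr covariate 30.4%, 1.59% and 32.9%. With the mean of the fibroblast markers as a covariate the counts were 5, 1 (Col5a1) and 4, beside 7.18%, 1.81% and 4.68% of all tested genes. In the 7 libraries with Ttr under 100 CPM, a fit with fewer samples, they were 17, 1 (Col27a1) and 14, beside 20.4%, 0.939% and 9.53%. The cause of these drops was not tested. With the fibroblast covariate 4 log2 fold changes also turned: against wild type Col4a6 was -0.0316, Col4a5 -0.0056 and Mrc2 -0.0689 (edgeR adjusted p = 0.949, 0.992 and 0.875), and against V591A;S602D Col14a1 was -0.0372 (adjusted p = 0.967). Leaving out each library in turn gave 26 to 31, 0 to 2 and 21 to 25 called chains. Over all tested genes the shares called were then 24.5 to 33.7%, 0.853 to 1.92% and 22.0 to 29.2%. The brainstem covariate gave 23, 0 and 22 chains, beside 23.8%, 1.26% and 23.9% of all tested genes. Libraries of different genotypes share replicate numbers. Of 15 pairs with the same number, 4 had a correlation of deviations above 0.1 (lowest -0.434, median -0.109, highest 0.568). Pairs with different numbers were not set beside them, so this check does not settle whether libraries were paired. With the replicate number as a block 29, 0 and 25 chains were called; the added calls were Col27a1 against wild type (edgeR adjusted p = 0.0297) and Col6a3 and Col6a4 against V591A;S602D. Without the 2 libraries farthest from the median the correlation was 0.577 for Col5a1 and Col5a2 and 0.673 for Col6a1 and Col6a2 (neither past the threshold), -0.0692 for Col6a1 and Col6a3, -0.0839 for Col9a1 and Col9a2 and -0.146 for Col9a2 and Col9a3. Col16a1, Col18a1 and Col5a1 kept their direction and call in both ATXN1[82Q] comparisons under every alternative run. Depth limited Col10a1, Col6a4 and Col6a5, whose wild-type libraries held 8 counts or fewer.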
